A study of Mus musculus with 4 samples.

Results

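Camk1d, Igsf21, Prkag2, Rora, Tenm2 and Rbfox1 are the 6 mouse genes described here, out of 21887 protein-coding genes. They were chosen because they hold 4 or 5 regions each of a list of places where, by the list's name, the transcription factor OTX2 was found in primitive streak cells only. All regions of the study's 4 lists were given to a gene by position. A region went to the gene containing its midpoint, the shortest one where genes overlap, or else to the nearest gene end no more than 100 kb off. By this rule the 6 genes held 105 of 39615 regions.

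The study mapped OTX2 by CUT&RUN, in which an antibody leads a nuclease to a chromatin protein and the DNA cut around it is sequenced. Mouse epiblast stem cells (EpiSCs, grown with 12.5 ng/ml FGF2, 20 ng/ml Activin A and NVP at 175 nM) were turned into primitive streak cells (PS) over 16 h with 40 ng/ml Activin A and 3 uM CHIR, which activates WNT signalling. Definitive endoderm (DE) followed after another 24 h in LDN, which blocks BMP receptors, at 100 nM and Activin A at 100 ng/ml. The 4 PS libraries of the series, each from 500000 cells of a BL6/129 hybrid background, comprise 3 with an anti-HA antibody, from the lines 7H, 7H1 and 7H2 OTX2-dTAG-EGFP, and 1 with control IgG, from 7H2. All 3 lines carry the dTAG-EGFP edit of OTX2 and the antibody reads its HA tag, so no library comes from unedited cells. Each anti-HA library is from a line of its own name, and the labels do not say whether the lines are separate clones. The deposited values are region lists named PS only, PS and DE, DE only, and EPI and PS (EPI as in the list name, which the labels do not spell out). They hold 1634, 6157, 31445 and 379 regions. No DE or EPI library is among the 4, so the labels do not say which libraries gave the regions of those stages. The lists carry no height, no count and no value per library, so depth is unknown, no spread between replicates exists, and each count below is a single value of the pooled lists. A region found in a cell population does not tell what share of the cells was bound there.

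OTX2 is a homeodomain factor of the bicoid class, known for its part in the epiblast, in anterior patterning and in the formation of the head. Its homeodomain is known to favour the DNA sequence TAATCC. The primitive streak is the site where epiblast cells leave the epithelium under NODAL and WNT signals to form mesoderm and definitive endoderm. Camk1d encodes a calcium/calmodulin-dependent protein kinase, and Prkag2 a regulatory gamma subunit of AMP-activated protein kinase (AMPK), the sensor of cellular energy. Rora encodes a nuclear receptor known from cerebellar development and the circadian clock. Igsf21, of the immunoglobulin superfamily, and Tenm2, a teneurin, encode cell-surface proteins known from synapses. Rbfox1 encodes an RNA-binding regulator of splicing in neurons and muscle.

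No genome sequence was used here, so the letters under the regions are not shown. Start-site sequences from RefSeq (GRCm38.p6, the assembly also called mm10) were matched for all 6 genes, with 10 listed start sites between them. Igsf21 and Prkag2 are shown because theirs are the listed start sites with an OTX2 region within 5 kb. Each line gives the 250 bases before the start site, 5′ to 3′ on the gene's own strand, with any TAATCC, or its reverse complement GGATTA, in capitals.
Igsf21: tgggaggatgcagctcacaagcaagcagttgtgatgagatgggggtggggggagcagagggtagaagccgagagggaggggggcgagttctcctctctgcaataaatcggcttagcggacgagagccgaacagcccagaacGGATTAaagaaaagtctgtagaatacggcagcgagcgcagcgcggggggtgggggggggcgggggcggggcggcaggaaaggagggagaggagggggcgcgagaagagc
Prkag2: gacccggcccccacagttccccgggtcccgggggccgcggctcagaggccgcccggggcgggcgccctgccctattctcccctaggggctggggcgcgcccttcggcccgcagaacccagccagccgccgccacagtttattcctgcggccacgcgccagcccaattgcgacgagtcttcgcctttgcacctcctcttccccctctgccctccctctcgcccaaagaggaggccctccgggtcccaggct
The Igsf21 stretch lies on chromosome 4 (chr4:140246812-140247061, minus strand) and holds 1 match, GGATTA, which begins 109 bases before the start site. The Prkag2 stretch lies on chromosome 5 (chr5:25100643-25100892, minus strand) and holds none. Of the 10 listed start sites of the 6 genes, 1 has a match in this window, against 5.82% of 21263 windows of the same length at protein-coding genes. A match of these letters is not a bound site. The nearest regions were of the PS and DE list, centred 2.75 kb upstream of the Igsf21 start and 4.43 kb upstream of the Prkag2 start (chr5:25105026-25105108, inside the gene span, which begins farther upstream), and no region of any list at the 6 genes touched a listed start-site window.

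PS only regions were rare at any gene. They fell at 1226 of the 21887 genes, 1059 of which held 1 region, 141 held 2 and 19 held 3. Camk1d held 5, more than any other gene, and Igsf21, Prkag2, Rora, Tenm2 and Rbfox1 held 4 each. Ntn1, which encodes the guidance cue netrin 1, also held 4 and is not one of the genes described here. The members with the fewest regions thus had 4, the same as Ntn1, and the next 19 genes had 3. A count of 4 does not by itself set the members apart, and the reason Ntn1 was left out is not given. These counts chose the genes and are given as a description.

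The 6 genes are long, and so is the stretch of genome from which each collects regions. This stretch, the territory, is the gene span plus the flanking bases that the assignment rule gives to it. It was 291 kb at Prkag2, 350 kb at Igsf21, 490 kb at Camk1d, 840 kb at Rora, 1343 kb at Tenm2 and 1728 kb at Rbfox1, whose territory ranks 11th of all genes. The median territory was 42.4 kb for genes with 0 PS only regions, 113 kb for genes with 1, 170 kb for genes with 2 and 405 kb for genes with 3. Of the 989 genes with a territory at least as long as that of Prkag2, 793 held 0 PS only regions and 6, the genes described here, held 4 or more. Length differed too widely among them for the counts to mean the same density. Prkag2 held 13.7 PS only regions per Mb of territory, Igsf21 11.4, Camk1d 10.2, Rora 4.76, Tenm2 2.98 and Rbfox1 2.32. By this density Prkag2 ranked 431st of all genes, behind genes of shorter territory. Igsf21 ranked 506th, Camk1d 555th, Rora 958th, Tenm2 1094th and Rbfox1 1147th, where 1226 genes held any PS only region.

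**Figure D1:**
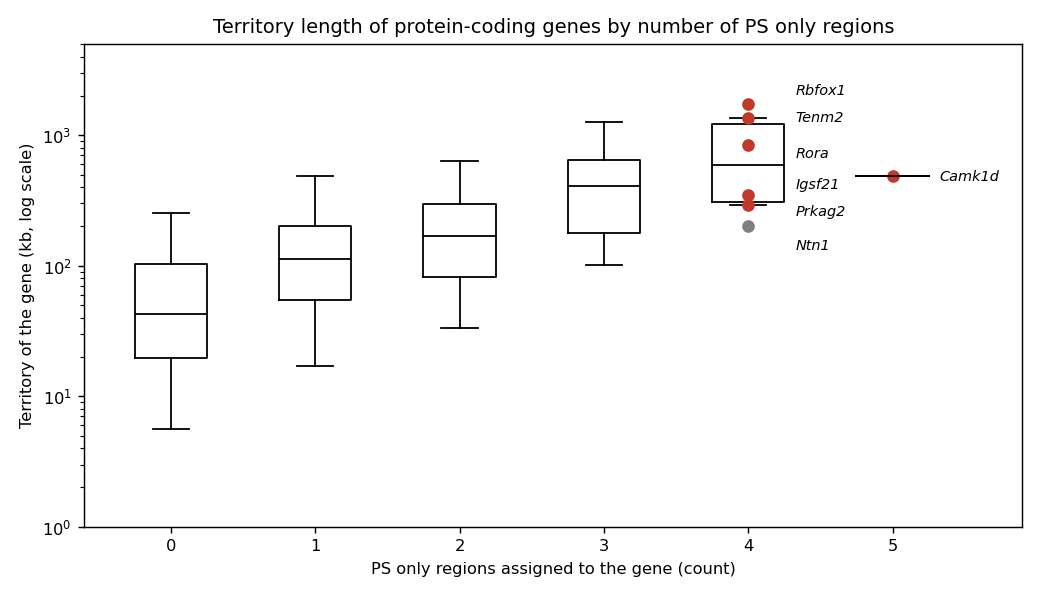
Territory length in kb (vertical, log scale) of protein-coding genes grouped by their number of PS only regions (horizontal). Boxes give the quartiles and median, whiskers the 5th and 95th percentiles, red points the 6 genes and the grey point Ntn1; medians go from 42.4 kb at 0 regions to 405 kb at 3.

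To set the counts against gene length, a negative binomial regression of regions per gene on the log of territory length was fitted over the 21880 genes with a territory, separately for each list. It gives the count expected for a gene of that length and the range that 95% of such genes would span. For PS only, used here as a description, it expected 0.187 regions at Prkag2, 0.216 at Igsf21, 0.281 at Camk1d, 0.428 at Rora, 0.618 at Tenm2 and 0.752 at Rbfox1. The observed counts were thus 21.4, 18.5, 17.8, 9.35, 6.48 and 5.32 times the expected ones. These ratios follow from counts that chose the genes, and no test was made of them.

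In the lists that did not choose the genes, none of their counts passed the regression test, which called no gene at all after adjustment. DE only regions numbered 5 at Camk1d, 5 at Igsf21, 5 at Prkag2, 15 at Rora, 16 at Tenm2 and 14 at Rbfox1. The regression expected 5.13, 3.98, 3.47, 7.70, 10.96 and 13.2, in the same order. The ratio of observed to expected was highest at Rora (1.95) and lowest at Camk1d (0.975), with a median of 1.35 over the 6 genes and 0.197 over all genes, most of which are short and hold few regions. Every one of the 6 counts lay inside its 95% range, which ran from 0 to 24 at Rora and from 0 to 17 at Camk1d. By the two-sided tail probability of the regression, 0 of the 6 passed an adjusted p of 0.05 (Benjamini-Hochberg over 21880 genes), beside 0.00% of all genes in either direction. At an unadjusted p under 0.05 the count was again 0 of 6, beside 1.28% of all genes called higher and 0.00% called lower. The 95% range began at 0 at all of the 6 but Rbfox1, where it began at 1. The test thus had little room to call a lower count. After adjustment it called no gene higher either, so 0 of 6 neither sets these genes apart nor shows that their counts are ordinary. The lowest unadjusted p was 0.273, at Rora, whose count was 1.95 times the expected one.

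PS and DE regions numbered 4 at Camk1d, 3 at Igsf21, 4 at Prkag2, 2 at Rora, 3 at Tenm2 and 3 at Rbfox1. Expected were 1.15, 0.867, 0.744, 1.81, 2.69 and 3.33, so the 3 shorter genes had 5.38 (Prkag2), 3.47 (Camk1d) and 3.46 (Igsf21) times the expected count and the 3 longer ones between 0.902 and 1.11 times. No gene passed the adjusted threshold, among the 6 or among all (0.00%). By the same negative binomial regression Prkag2 had the lowest p, 0.0813 (adjusted p = 1), with 4 regions inside its 95% range of 0 to 4, and 1.25% of all genes had an unadjusted p under 0.05 with a higher count. Both this list and PS only are drawn from PS, and how regions were divided between them is not stated in the labels. The EPI and PS list gave 1 region, at Rbfox1 (chromosome 16, 6206535 to 6206646, within the gene), and 0 at the other 5 genes, where at most 0.0713 was expected. It also gave no adjusted call at any gene (0.00%), and 1.10% of genes were called higher at an unadjusted p under 0.05. No gene was called lower at that p in this list or in PS and DE, where the 95% ranges of the 6 genes began at 0. The p at Rbfox1 was 0.134.

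**Figure D2:**
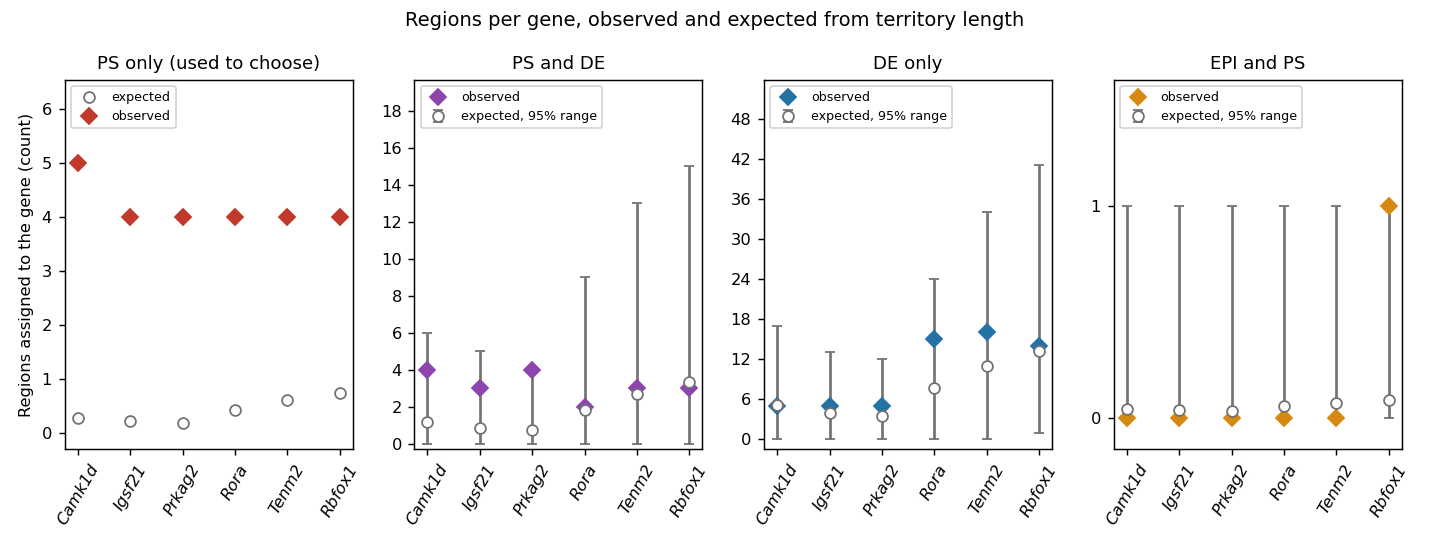
Regions assigned to each of the 6 genes (count, vertical) in each list; diamonds are observed counts, open circles the count expected from territory length, and bars (not drawn for PS only) the range that 95% of genes of that length would span. In the 3 lists that did not choose the genes, all observed counts lie within the bars, for example 15 DE only regions at Rora in a range of 0 to 24.

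Since the choice set the PS only count at 4 or 5, its share of each gene's regions is a description and falls as the other lists add regions. Of all regions assigned to a gene in the 4 lists, PS only made up 35.7% at Camk1d (5 of 14), 33.3% at Igsf21 (4 of 12) and 30.8% at Prkag2 (4 of 13). It made up 19.0% at Rora (4 of 21), 18.2% at Rbfox1 (4 of 22) and 17.4% at Tenm2 (4 of 23). Over all genes it was 4.12%. A measure without the PS only list is the share of DE only among the regions of the DE only and the PS and DE lists. Its PS and DE part is drawn from PS, as is the list that chose the genes, so this share is not independent of the choice. None of the 4 lists is named for regions shared by EPI and DE, or by all stages, so this is not a share of every region in DE. Over all genes the share was 83.6%. It was 55.6% at Camk1d and at Prkag2 (5 of 9 each) and 62.5% at Igsf21 (5 of 8), but 88.2% at Rora (15 of 17), 84.2% at Tenm2 (16 of 19) and 82.4% at Rbfox1 (14 of 17). By an exact binomial test per gene, two-sided, Camk1d and Prkag2 had p = 0.0454 each, Igsf21 0.130, Rbfox1 0.751, and Rora and Tenm2 1. After adjustment over the 1347 genes with at least 6 such regions, 0 of the 6 passed (adjusted p = 0.817 for Camk1d and Prkag2, exact binomial test). The background was 0.0742% called lower after adjustment, which is 1 gene, and 5.79% called lower at an unadjusted p under 0.05. The gene called was Cst3, which encodes the protease inhibitor cystatin C, with 6 PS and DE regions and 0 DE only; it is named because it is the only call, after its values were seen. Regions near each other are not independent, so these p-values can be too small.

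The position of the regions within each locus differed from gene to gene, as the map of regions along the genes shows. Of the 25 PS only regions, 19 lay inside the gene spans and 6 upstream. The 19 make up 76.0%, against 78.2% of PS only regions at the genes with as long a territory and a listed start. None of the 25 was centred within 5 kb of a start site listed for its gene, the nearest being 5.68 kb away, at Prkag2. At genes with as long a territory, 6.44% of PS only regions lay that close (13 of 202), and at all genes with a listed start 21.9%. The annotation used here gives gene spans and start sites, not exons or UTRs, so inside means within the span.

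**Figure D3:**
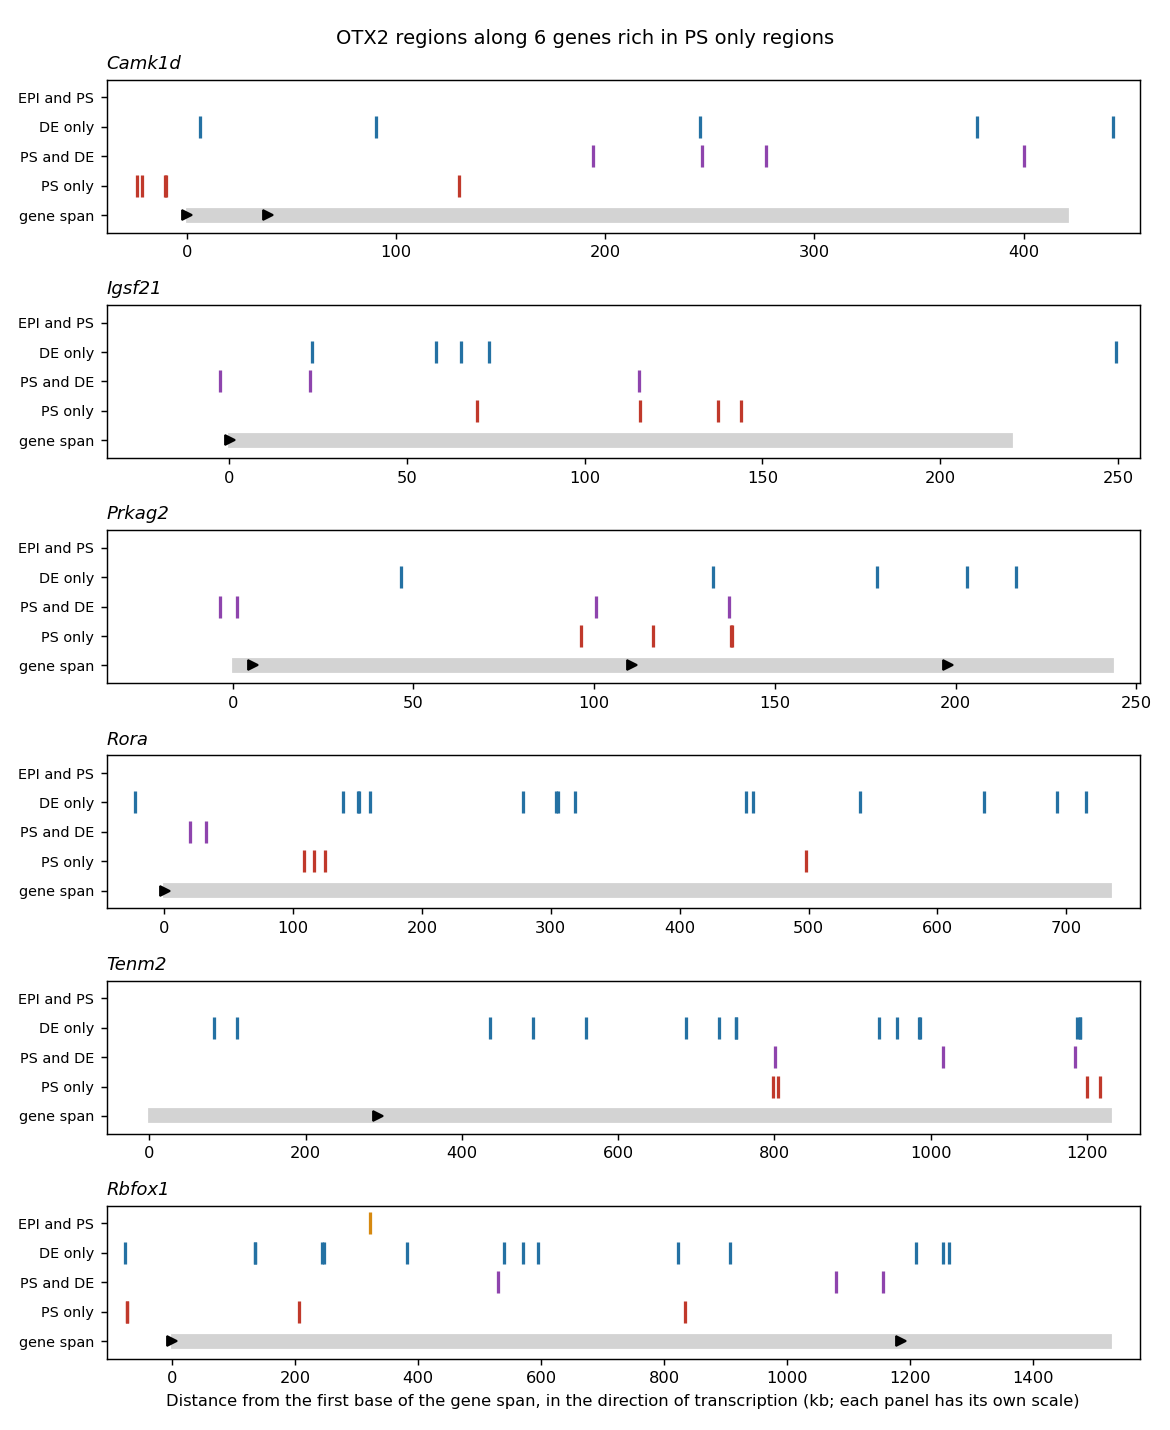
Regions of the 4 lists (coloured ticks, 1 row per list) along each of the 6 genes, by distance from the first base of the gene span in the direction of transcription (kb, a separate scale per gene); grey bars are gene spans and black triangles listed start sites. At Camk1d 4 of the 5 PS only regions lie upstream of the span, and at Tenm2 all 4 lie beyond the middle of it.

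At Camk1d (chromosome 2, 5293457 to 5714860, mm10, minus strand), 1 PS only region lay inside the gene, at 5584582 to 5584879, and 4 lay upstream. Those upstream were at 5725011 to 5725178, 5725425 to 5725629, 5736013 to 5736259 and 5738523 to 5738878. They lie 10.2 to 23.8 kb before the first base of the gene and form 2 close groups, with gaps of 246 bp and 2263 bp. The last 2 are inside the lncRNA gene Gm29857, and the next protein-coding gene, Cdc123, is at least 55.6 kb away from any of the 4. The gene's 4 PS and DE regions were instead all inside it, 194 to 400 kb from its first base, and none lay within 50 kb of a PS only region of the locus. Camk1d also held wide PS only regions, of 168, 205, 247, 298 and 356 bp, where the median of the list is 115 bp. The widest was wider than 99.4% of the list and the narrowest wider than 79.1%.

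At Prkag2 (chromosome 5, 24862735 to 25106282, minus strand) the 4 PS only regions were all inside the gene, between 39.6% and 56.7% of the way along it. The first and second, at 24968046 to 24968139 and 24968259 to 24968374, were 0.119 kb apart, and a PS and DE region at 24968995 to 24969192 followed after 0.620 kb. The third, at 24989927 to 24990216, was 290 bp wide and lay inside the lncRNA gene 1500035N22Rik, 5.68 kb from a listed internal start site. The fourth, at 25009901 to 25009999, lay 3.96 kb from another PS and DE region. Prkag2 was thus the gene whose PS only regions lay nearest to PS and DE regions, with a median gap of 2.41 kb, against 72.6 kb for all PS only regions.

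At Rora (chromosome 9, 68653404 to 69388246, plus strand) 3 of the 4 PS only regions stood in a row, at 68762196 to 68762305, 68769728 to 68769855 and 68777818 to 68777910. They lie 109 to 124 kb into the gene, with gaps of 7.42 and 7.96 kb, and the middle one is inside the lncRNA gene 9530091C08Rik. The fourth, at 69151147 to 69151327, lies 498 kb into the gene. Both PS and DE regions of Rora lay nearer its start, 20.2 and 32.1 kb into the gene. The smallest gap between a PS only and a PS and DE region there was 76.6 kb. DE only regions were spread over the locus, from 22.5 kb upstream to 715 kb inside, and the nearest to the row of 3 was 14.1 kb away. Rora is the only nuclear receptor gene among the 6.

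At Igsf21 (chromosome 4, 140026852 to 140246983, minus strand) the 4 PS only regions lay inside the gene, 69.7 to 144 kb from its first base, at 140102955 to 140103099, 140109334 to 140109461, 140131388 to 140131519 and 140177233 to 140177365. Their widths were alike, 128 to 145 bp. The third was 0.198 kb from a PS and DE region at 140131718 to 140131842, the smallest gap between those lists at the 6 genes. Another PS and DE region, at 140249501 to 140249618, is the one upstream of the start site shown above.

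At Tenm2 (chromosome 11, 36006656 to 37237053, minus strand) all 4 PS only regions lay in the part of the gene far from its first base, at 64.9% to 98.9% of its span. Its only listed start site is itself 293 kb into the span. A pair of them, at 36432617 to 36432768 and 36438663 to 36438739, stood on either side of a PS and DE region at 36436070 to 36436229, with gaps of 3.30 and 2.43 kb. The other pair, at 36020195 to 36020275 and 36036610 to 36036764, lay 16.3 kb apart near the end of the gene, and the first of these is inside the lncRNA gene Gm42072. All 3 PS and DE regions were in the same stretch, at 65.1% to 96.3% of the span, whereas the 16 DE only regions ran from 6.75% to 96.8%. The narrowest PS only region at the 6 genes, 77 bp, was also at Tenm2, and no PS only region of the whole list was narrower.

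At Rbfox1 (chromosome 16, 5884793 to 7412480, plus strand) a pair of PS only regions lay outside the gene, 73.0 and 73.2 kb upstream, at 5811515 to 5811606 and 5811730 to 5811833. They were 0.123 kb apart, and a DE only region stood 3.08 kb from them. The other 2 were inside, at 6090368 to 6090469 (206 kb into the gene and inside the lncRNA gene Gm36824) and at 6718639 to 6718748 (834 kb into it). No PS only region of Rbfox1 had a PS and DE region nearer than 246 kb. All 4 were narrow, 92 to 110 bp, below the list's median of 115 bp.

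Over all 6 genes, PS only regions lay close to each other, which the choice of genes favours. The median gap to the nearest PS only region was 7.42 kb for the 25 regions and 285 kb for all 1634, and 6 of the 25, against 62 of all, had another within 500 bp. Those 6 are the close pairs at Camk1d, Prkag2 and Rbfox1. The gap to the nearest PS and DE region, which the choice did not use, had a median of 63.8 kb at the 6 genes and 72.6 kb in the list, and 48.0% (12 of 25) against 41.4% lay within 50 kb. Those 12 were all the PS only regions of Igsf21, Prkag2 and Tenm2, and none of those of Camk1d, Rora and Rbfox1. DE only regions stood a median of 25.5 kb away, against 17.9 kb in the list. None of the 25 had a DE only region within 1 kb, against 7.59% of the list. No test was run on these gaps, since regions of 1 gene are not replicates.

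**Figure D4:**
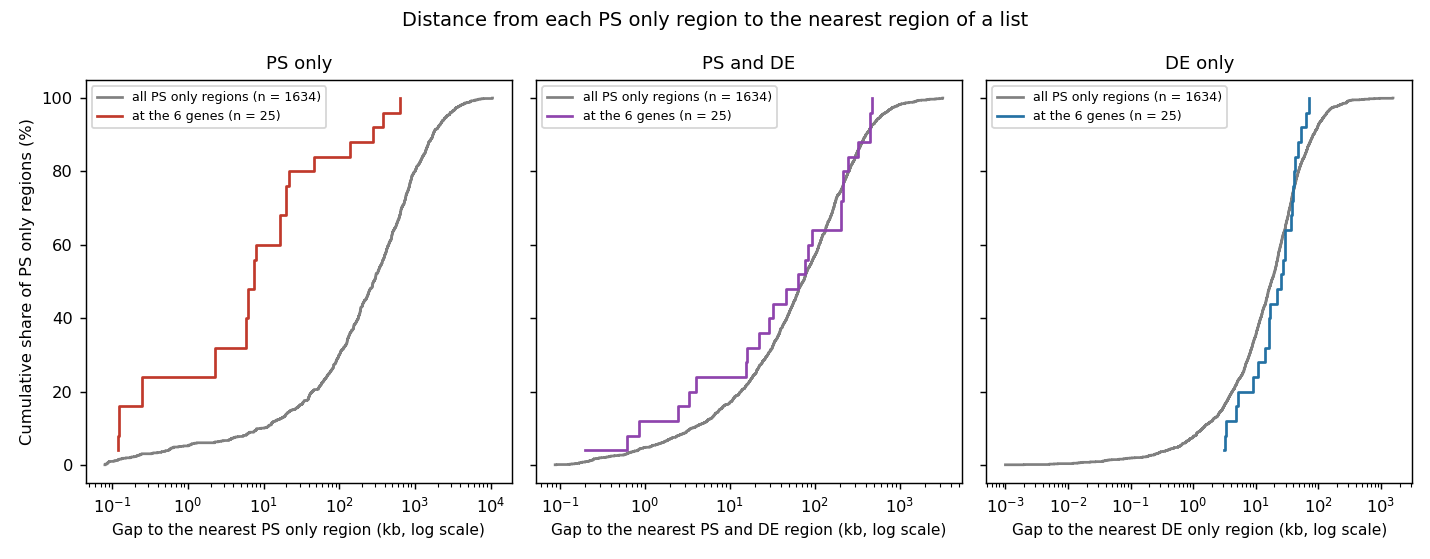
Cumulative share of PS only regions (percent, vertical) by the gap to the nearest PS only, PS and DE or DE only region (kb, horizontal, log scale), for the 25 regions at the 6 genes (coloured) and all 1634 (grey). The curves stand apart in the first panel (medians 7.42 and 285 kb), which the choice of genes favours, and lie close together in the second (63.8 and 72.6 kb).

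How regions are counted changed the PS only counts. With gene ends within 50 kb in place of 100 kb, Rbfox1 fell from 4 to 2 and the other 5 genes kept theirs. With gene ends within 1 Mb, the 6 genes kept their counts and 9 genes in all, 3 of them not among the 6, held 4 or more. With regions of at least 150 bp only, Camk1d kept all 5 PS only regions, Tenm2 kept 2, Prkag2 and Rora 1 each, and Igsf21 and Rbfox1 0. That width also leaves out most of the whole PS only list, whose median is 115 bp. With regions inside gene spans only, Camk1d had 1 and Rbfox1 2, while Igsf21, Prkag2, Rora and Tenm2 had 4 each and were the only genes with as many as 4. With regions within 500 bp merged, Camk1d had 4 and Prkag2 and Rbfox1 3 each. With those within 5 kb merged, Igsf21, Rora and Tenm2 had 4, the only genes to do so, and Camk1d had 3. Igsf21, Rora and Tenm2 had 4 under every counting rule tried except the one on width.

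**Figure D5:**
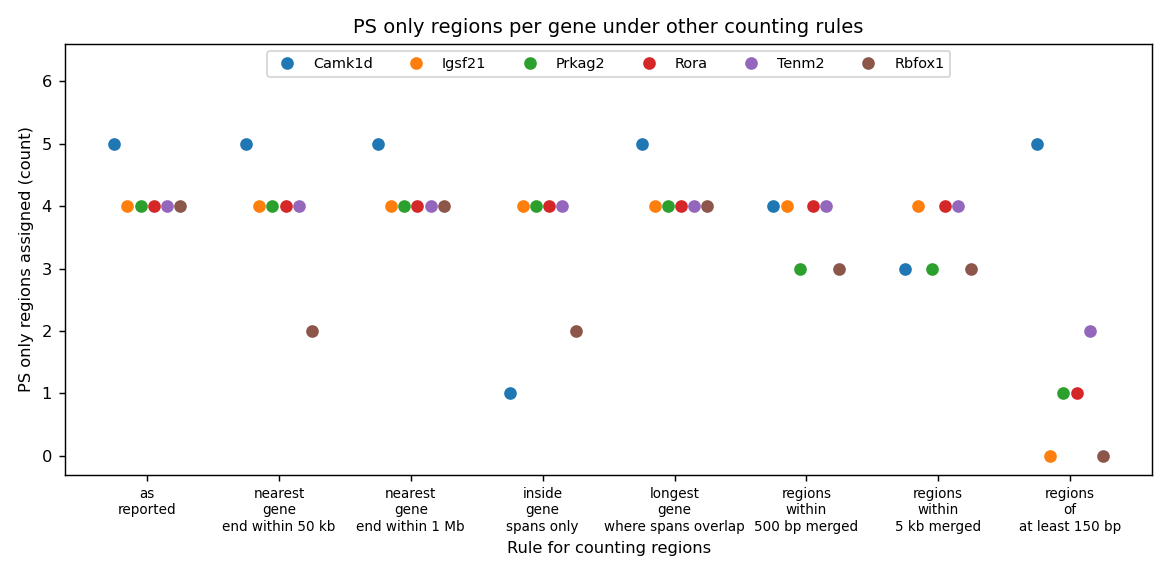
PS only regions assigned to each of the 6 genes (count, vertical) under the rule used in the text and 7 other counting rules (horizontal). Camk1d falls from 5 to 1 when regions outside gene spans are left out, and Igsf21 and Rbfox1 fall to 0 when regions under 150 bp are left out.

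Likeness to other genes was measured as the sum of the absolute differences in region counts over the 4 lists, where 0 means equal counts in all 4. The PS only list, which chose the genes, is 1 of the 4, so likeness among the 6 and difference from other genes are partly set by that choice. Among the 6 genes, Prkag2 differed by 1 from both Camk1d and Igsf21, and Rora by 2 from Tenm2. Outside the 6, the most alike gene was sought over all other protein-coding genes. Ntn1 differed by 1 from Igsf21 and by 2 from Prkag2 (1 of 2 genes). Atxn1, which encodes ataxin 1, differed by 3 from Camk1d (1 of 2 genes at that difference), and the neuron navigator gene Nav2 by 3 from both Rora and Tenm2 (again 1 of 2 each). Ank3, which encodes the membrane scaffold ankyrin G, differed by 3 from Rbfox1.

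Of 32 further genes of the same families or partners, 6 (18.8%) held a PS only region, with 8 regions in all, against 5.60% of all protein-coding genes. Of the 11 with a territory at least as long as that of Prkag2, 2 (18.2%) did so, against 19.8% of the 989 genes of that length. Of the 21 shorter relatives 4 (19.0%) did so, against 5.60% of all genes of any length. No share was computed for the shorter genes alone, and no test was run on these shares. PS and DE regions fell at 11 of the 32 relatives, and 16.3% of all genes had one. DE only regions fell at 26 of the 32, and 50.1% of all genes had one. Gene length was not matched in these counts of PS and DE and DE only, so they do not show an excess in the families. In the calcium/calmodulin kinase family, Camk1g held 1 PS only, 4 PS and DE and 5 DE only regions in 125 kb, and the other 9 genes 0 PS only regions. Among AMPK subunits, the catalytic subunit genes Prkaa1 and Prkaa2 held 1 PS only region each, and the other gamma subunit genes, Prkag1 and Prkag3, held 0. Rorb, a receptor gene related to Rora, held 0 PS only regions, as did the REV-ERB genes Nr1d1 and Nr1d2. Of the other teneurins, Tenm4 held 2 PS only regions and Tenm1 and Tenm3 0, and the latrophilin genes, whose products bind teneurins, also held 0. Tenm3 has a territory of 1439 kb, longer than that of Tenm2 (1343 kb). Rbfox2 held 1 PS only region and Rbfox3 0. Nrxn3, a neurexin gene, held 2 within 1812 kb, and Nrxn2 held 0. No gene of these families passed the adjusted threshold in any test above, nor did any other gene in the regression.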

How the data were processed

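CUT&RUN was done with anti-HA (diluted 1:100) in 3 PS libraries and IgG in 1. The series holds no DE or EPI library, so the lines, antibody and control behind the regions of those stages are not known. Per the submitters' processing notes, the build was mm10 and the software MACS2 2.2.6, Bowtie2 2.3.5.1, bedtools 2.30, Picard 2.26.10 and SAMtools 1.14. The labels give neither their settings, nor a peak threshold, nor the way libraries were combined into lists. What the authors deposited is 4 BED lists (chromosome, start, end), with no other value.

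Starts were converted to count from 1. No region overlapped another, and 2 regions on an unlocalized scaffold got no gene. Genes and start sites came from RefSeq (GRCm38.p6); 17492 coding genes had a listed start. Counts per gene were tested with a negative binomial regression (numpy 2.4.6, scipy 1.17.1), fitted over 21880 genes with the log of territory length as covariate, and shares with an exact binomial test. P-values were two-sided and Benjamini-Hochberg adjusted over all genes tested. Scripts were tested on simulated data. The members and gene lists were chosen with earlier results of these data known. Named are the 6 genes, others with as many PS only regions, the most alike gene outside the 6 for each, and relatives with a PS only region or a call; relatives with 0 are named beside them.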

Additional observations from a re-analysis of the deposited data

How the results depend on the processing

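The lists hold no value per library, so no library could be left out, and depth cannot be weighed. No paired analysis was possible because the lists carry no replicate columns. Under 9 alternatives (assignment within 50 kb or 1 Mb, inside spans only, the longest of overlapping genes, merging within 500 bp or 5 kb, at least 150 bp, a binomial test with expected counts proportional to territory, and at least 10 DE regions), 0 of the 6 genes passed the adjusted threshold in the tests that could be run (lowest adjusted p 0.570). The DE only share could be tested only at Rora and Tenm2 with 150 bp, and only at Rora, Tenm2 and Rbfox1 with 10 DE regions. With at least 150 bp, the 6 genes held 9 PS only regions in place of 25. Most of the whole PS only list is narrower than that as well, with a median of 115 bp and an upper quartile of 156 bp. Over all genes, the binomial test called 31 higher for PS and DE, 63 higher and 33 lower for DE only, and 1 higher for EPI and PS, where the regression called 0. The 1 gene called by its DE only share became 0 inside spans only, with either merging and at 150 bp; with at least 10 DE regions it was also 0, as that gene, with 6, was not tested.

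Of 185 ratios to the expected value, none called, 19 crossed 1, and the cause was not tested. For DE only these were 1.06 (1 Mb), 1.01 (500 bp) and 1.137 (5 kb) at Camk1d, 0.994 (binomial) at Igsf21, 0.800 (150 bp) at Prkag2, 0.828 (binomial) at Tenm2, and 0.955 (50 kb), 0.791 (inside), 0.701 (150 bp) and 0.563 (binomial) at Rbfox1. For PS and DE they were 0.976 (inside), 0.853 (150 bp) and 0.792 (binomial) at Tenm2, 0.845 (binomial) at Rora and 1.01 (5 kb) at Rbfox1. For EPI and PS, Rbfox1 had 0 (150 bp). For the DE only share, Tenm2 had 0.990 (1 Mb), 0.986 (500 bp) and 0.970 (5 kb).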
